A study of Oryza sativa Japonica Group and Oryza sativa Indica Group and Oryza sativa Indica Group x Oryza sativa Japonica Group with 9 samples.

Results

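In the shoots of F1 hybrid rice seedlings, 111 loci were expressed above both parents. They were chosen by their measured values from the 55783 loci of the files: the lowest of the 3 F1 values had to exceed the highest of the 6 parental values, the F1 mean had to reach 5 FPKM, and the F1 mean had to be at least 1.5 times the larger of both parental means. FPKM is the number of fragments scaled to transcript length and to library size. All of these values entered the choice, so the height of F1 over its parents is given below as a description and carries no test. The parents were C92, which the labels place in the japonica group, and MH63 (Minghui 63), an indica restorer line of hybrid rice breeding. The hybrid carries a chromosome set of each, and the labels write the cross in both orders, so the seed parent is not stated. Polyadenylated RNA was sequenced from shoots at 14 days of age, with 3 libraries for each of the 3 groups. All seedlings stood in water at 28 °C with 16 h of light and 8 h of dark. The light intensity was 100 µmol m⁻² s⁻¹ for all of them. The labels call the replicates biological but do not say which plants went into each; p-values thus reflect only the differences among the 9 libraries, which may be technical in part.

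A hybrid receives a copy of each gene from either parent, and if both copies kept their parental activity its transcript level would lie midway between the parents. Loci that pass the higher parent leave that range altogether, a pattern called overdominant or transgressive expression. It is studied for its place in hybrid vigour, for which crosses between the rice subspecies are known.

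The files identify each locus only by an ID, and 0 of the 55783 IDs occur in the RefSeq gene table used here. Loci are therefore called by ID, with no gene name or role, and chromosomes are read from the digits that follow Os in each ID. The labelled tissue could not be checked against marker genes for the same reason. In bulk tissue, more cells of a type and more RNA per cell cannot be told apart. FPKM values summed to between 602005 and 623806 per library, and 30440 to 33329 loci were above 0. Read numbers are not given; relative depth, read from the size of the smallest FPKM steps, ran from 0.954 to 1.245 of that of C92 library 1. F1 library 1 stood apart from the other F1 libraries at these loci, and the count of loci and the ratios of the most uneven loci are also given without it.

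The rule was narrow. An F1 mean of at least 5 FPKM was reached by 14113 loci, of which 4639 (32.9%) had an F1 mean above the larger parental mean. In 866 of them (6.14%) all 3 F1 libraries lay above all 6 parental libraries, and 111 of these (0.787%) also met the ratio of 1.5. The median ratio of F1 to the larger parent over the 14113 loci was 0.930. The mirrored rule, with F1 below both parents and the lower parent at 5 FPKM or more, was met by 178 loci.

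**Figure D1:**
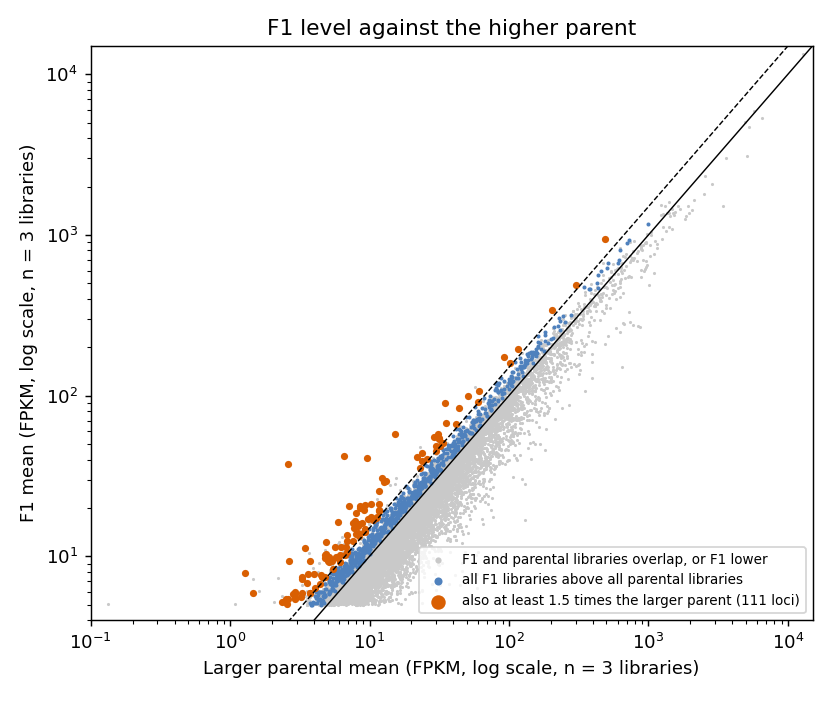
F1 mean against the larger parental mean for the loci with an F1 mean of at least 5 FPKM, both axes in FPKM on log scales. The solid line marks equal levels and the dashed line a ratio of 1.5; the 111 chosen loci lie above the dashed line, from 5.03 to 940 FPKM in F1 (log axis).

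Most of the 111 loci exceeded the higher parent by less than 2-fold. The ratio of the F1 mean to the larger parental mean had a median of 1.87 and quartiles of 1.64 and 2.13; 37 loci reached a ratio of 2, 8 reached 3 and 5 reached 4. Against the midpoint of the parents the median ratio was 2.06. At 65 loci the F1 mean was above the sum of both parental means, so that it passed the full level of C92 and MH63 added together. Libraries often came close to each other in spite of the rule: the lowest F1 library was less than 1.1 times the highest parental library at 21 loci, at least 1.5 times it at 23 loci and at least 2 times it at 1 locus.

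That 1 locus was LOC_Os08g07080, which had the largest ratio of all. In C92 its libraries held 3.46, 2.59 and 1.37 FPKM, those of MH63 0.44, 0.84 and 6.48, and those of F1 26.95, 33.34 and 52.69. Its lowest F1 library was 4.16 times its highest parental library. The F1 mean of 37.7 ± 13.4 FPKM (SD, n = 3) was 14.6 times the MH63 mean of 2.59 ± 3.38 and 14.9 times the midpoint of the parents. MH63 library 3 made up most of the MH63 level, and when single libraries were left out the ratio ran from 10.3 to 16.6.

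LOC_Os09g31031 held 3.84, 9.38 and 6.59 FPKM in C92, 2.25, 4.74 and 5.47 in MH63, and 10.65, 45.67 and 69.66 in F1. Its F1 libraries differed more than those of any other of the 111 loci: library 3 held 6.54 times the level of library 1, which was barely above the highest C92 library. The ratio of the means was 6.36, with 8.73 without F1 library 1 and 4.26 without F1 library 3.

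LOC_Os02g08330 and LOC_Os01g32670 shared this uneven F1 pattern. LOC_Os02g08330 held 1.08, 1.38 and 0.74 FPKM in C92, 0.69, 1.34 and 1.84 in MH63, and 2.58, 9.77 and 11.27 in F1, a ratio of 6.10. LOC_Os01g32670 held 10.35, 10.47 and 8.18 FPKM in C92, 1.03, 1.80 and 3.50 in MH63, and 13.14, 58.14 and 51.57 in F1, a ratio of 4.24. In both, F1 library 1 lay just above the parents while libraries 2 and 3 lay far above them. Without F1 library 1 the ratio was 8.15 at LOC_Os02g08330 and 5.67 at LOC_Os01g32670. These 3 loci had the largest coefficients of variation (SD over mean) across the F1 libraries, at 70.7%, 59.0% and 59.4%.

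LOC_Os03g57640 held 1.81, 1.00 and 0.92 FPKM in C92, 0.47, 2.01 and 1.90 in MH63, and 3.74, 7.68 and 6.41 in F1, a ratio of 4.07. LOC_Os04g27190 held 14.43, 9.12 and 19.63 FPKM in C92, 12.72, 8.49 and 24.50 in MH63, and 46.75, 65.18 and 61.33 in F1, a ratio of 3.79. Here the parents resembled each other, and every F1 library was well above both. LOC_Os04g27340, also on chromosome 4, was named after its values had been seen: it held 1.99, 1.70 and 3.00 FPKM in C92, 2.6, 1.41 and 3.98 in MH63, and 6.54, 11.93 and 9.48 in F1, a ratio of 3.50. Both chromosome 4 loci had their highest level of each parent in library 3 and their highest F1 level in library 2.

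The loci were mostly of low to middle abundance. The F1 mean had a median of 15.0 FPKM, with 36 loci between 5 and 10 FPKM, 67 between 10 and 100, and 8 at 100 or more. The ratio to the larger parent ran from 1.56 to 1.92 in the 6 highest. Over all chosen loci it had a median of 1.87 and quartiles of 1.64 and 2.13. Most of the loci above were picked for their large ratios, so they cannot show whether the ratio changes with abundance. Such a relation was not tested.

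LOC_Os01g10400 was the most abundant. It held 525.17, 290.49 and 513.30 FPKM in C92, 542.87, 348.74 and 575.62 in MH63, and 939.95, 899.17 and 980.74 in F1. Both parents were low in library 2, whereas the F1 libraries lay within a narrow band of 940 ± 40.8 FPKM (SD, n = 3), 1.92 times the MH63 mean.

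LOC_Os04g59440 held 287.81, 264.43 and 350.39 FPKM in C92, 270.39, 186.66 and 110.08 in MH63, and 490.40, 470.92 and 498.45 in F1, a ratio of 1.62. LOC_Os01g37690 held 140.66, 162.13 and 180.28 FPKM in C92, 195.69, 222.57 and 190.14 in MH63, and 367.73, 317.83 and 343.65 in F1, a ratio of 1.69. At both loci the F1 libraries were close to each other, and the lowest was 1.34 and 1.43 times the highest parental library.

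LOC_Os02g57720 held 98.00, 92.82 and 159.80 FPKM in C92, 133.86, 113.70 and 74.24 in MH63, and 185.97, 238.91 and 162.30 in F1, a ratio of 1.67. F1 library 3 and C92 library 3 nearly met here. LOC_Os07g48020 held 99.40, 66.00 and 112.31 FPKM in C92, 46.37, 45.96 and 38.09 in MH63, and 156.86, 227.86 and 139.25 in F1, a ratio of 1.89. LOC_Os05g05680 held 100.01, 97.60 and 108.90 FPKM in C92, 110.49, 96.53 and 75.44 in MH63, and 146.27, 172.82 and 158.30 in F1, a ratio of 1.56. Of these 3 loci, only LOC_Os07g48020 had parents that did not overlap, with C92 the higher.

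**Figure D2:**
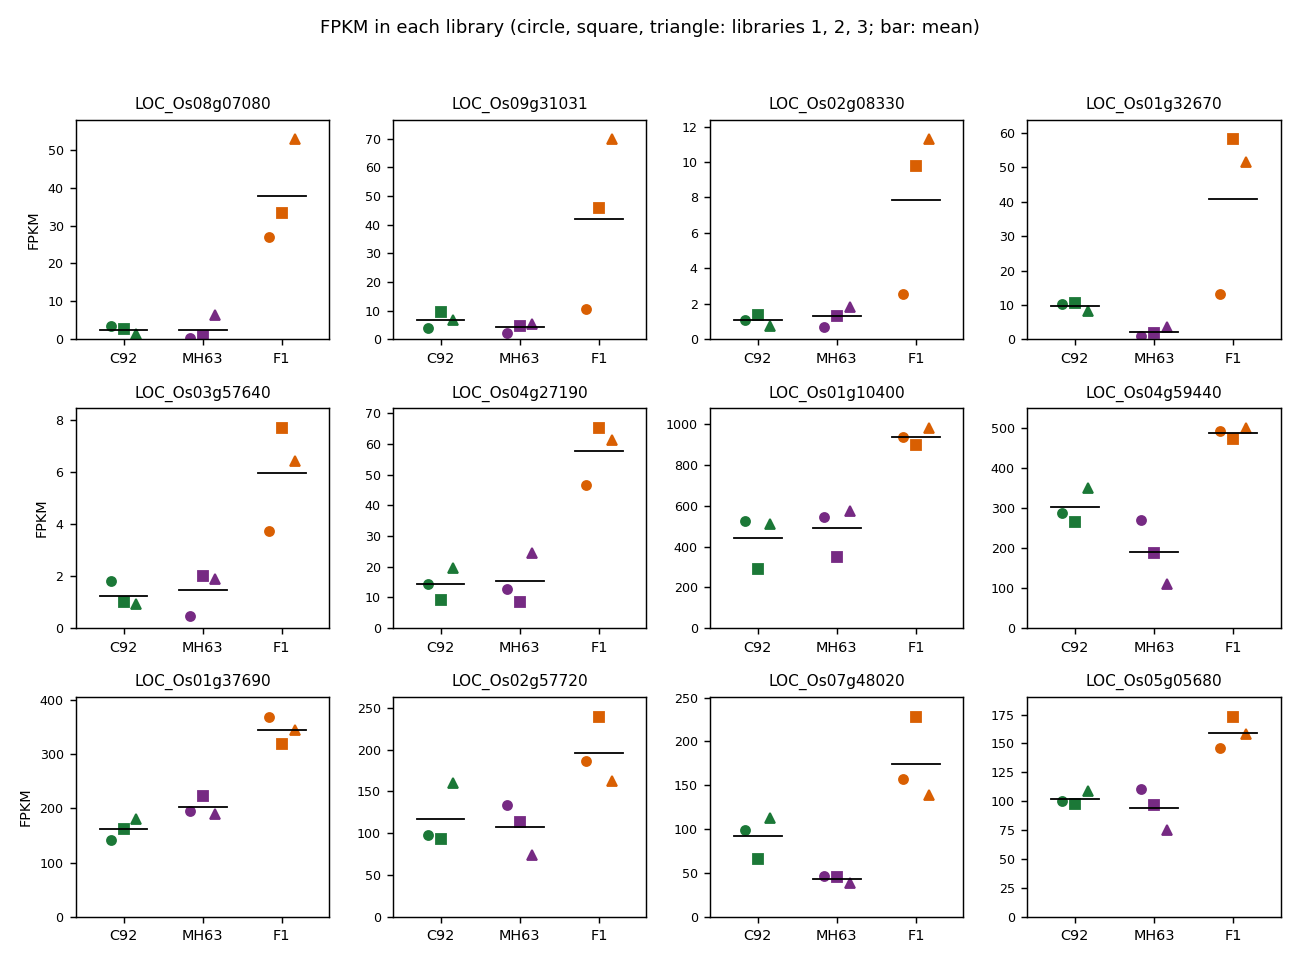
FPKM (linear axes from 0) in each library of C92, MH63 and F1 for the 6 loci with the largest ratio to the larger parent and the 6 with the highest F1 mean; symbols mark libraries 1, 2 and 3 and the bar is the group mean. Every F1 symbol lies above every parental symbol, as the rule demands; the F1 libraries are spread widely at LOC_Os09g31031 and lie close together at LOC_Os01g10400.

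Summed over the 111 loci, FPKM came to 4437, 4954 and 4730 in the F1 libraries. The sums were 2436, 2122 and 2641 in C92 and 2228, 2108 and 2078 in MH63. The 111 loci thus took 0.724% to 0.812% of each F1 library and 0.340% to 0.431% of each parental library. The rule sets the direction of this difference. LOC_Os01g10400 alone held 899 to 981 FPKM of each F1 sum and 290 to 576 of each parental sum.

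Near the limit of the rule the loci changed little. LOC_Os03g01900, LOC_Os01g57073 and LOC_Os07g43310 were the last loci inside, with ratios of 1.506, 1.514 and 1.514. LOC_Os03g01900 held 6.11, 9.05 and 8.61 FPKM in C92, 9.91, 10.95 and 7.16 in MH63, and 12.01, 16.01 and 14.19 in F1. LOC_Os01g57073 ranged from 5.39 to 6.78 FPKM in the parents and from 7.35 to 10.56 in F1, and LOC_Os07g43310 from 4.43 to 5.88 and from 6.71 to 10.19. The first loci outside had libraries just as separate. LOC_Os06g29844, with a ratio of 1.498, held 16.99, 10.32 and 16.71 FPKM in C92, 20.27, 17.01 and 17.45 in MH63, and 25.36, 30.32 and 26.29 in F1. LOC_Os09g39780 ranged from 4.5 to 6.86 FPKM in the parents and from 8.41 to 10.90 in F1, and LOC_Os03g17800 from 7.63 to 10.23 and from 13.73 to 17.12; both had a ratio of 1.497. In all, 23 loci lay between 1.5 and 1.6, and 52 that met the other conditions lay between 1.4 and 1.5. A further 315 loci met the ratio and the separation but had an F1 mean under 5 FPKM; the highest of these was LOC_Os04g38620 at 4.96 FPKM, against 5.03 for LOC_Os01g72120, the lowest inside.

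The 3 F1 libraries did not contribute evenly. Among the 111 loci, library 1 was the lowest F1 library at 67 (60.4%) and library 2 the highest at 62 (55.9%). Over the 14113 loci with an F1 mean of at least 5 FPKM, library 1 was the lowest at 27.4% and library 2 the highest at 38.0%. Library 2 was at least 1.5 times library 1 at 29 of the 111 loci (26.1%), against 2.78% of all 14113, and library 3 was at least 1.5 times library 1 at 16 (14.4%), against 2.08%. The difference in depth between F1 libraries 1 and 2, at 1.018 and 1.245 relative to C92 library 1, moved with this order; its part was not tested. The median of library over group mean was 0.890, 1.08 and 0.999 in F1 libraries 1, 2 and 3 for the 111 loci, and 1.005, 1.007 and 0.975 for all 14113.

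The parental libraries, whose order the rule did not compare, were also uneven at these loci. MH63 library 1 was the lowest MH63 library at 51 of the 111 loci (45.9%), against 27.2% of all 14113, and library 2 the highest at 48 (43.2%), against 28.8%. The median of library over group mean at the 111 loci was 0.914, 1.06 and 0.984 in MH63 libraries 1, 2 and 3, and 1.004, 0.965 and 1.03 in C92. The spread was wide in all groups: the median coefficient of variation was 15.5% in C92, 20.3% in MH63 and 19.7% in F1, against 10.1%, 9.30% and 9.87% for all 14113 loci. Abundance was compared by taking the loci with an F1 mean from 9.28 to 38.3 FPKM, between the quartiles of the 111. There the medians were 16.1%, 19.8% and 21.2% for the 55 chosen loci and 9.57%, 8.70% and 9.26% for all 7771.

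**Figure D3:**
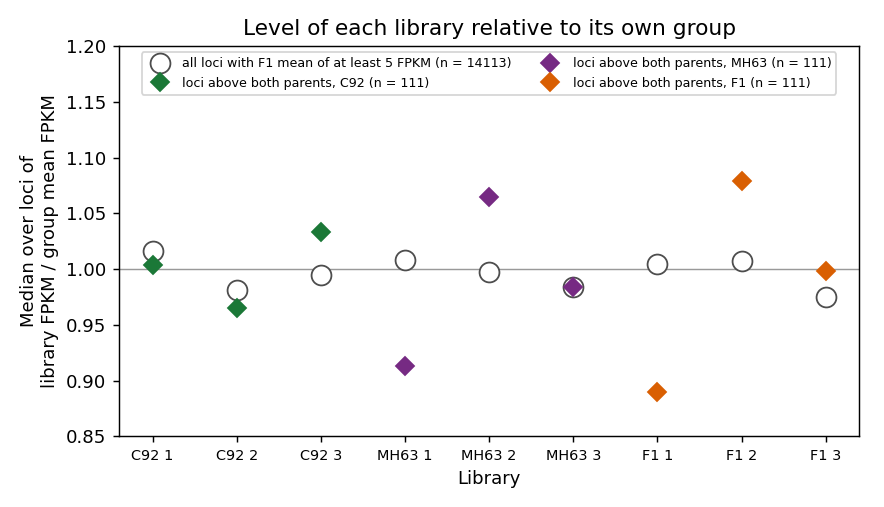
Median over loci of the FPKM in a library divided by the mean of its group, for each of the 9 libraries; diamonds are the 111 loci above both parents and open circles all loci with an F1 mean of at least 5 FPKM. The diamonds of F1 library 1 (0.890) and MH63 library 1 (0.914) lie lowest and those of F1 library 2 (1.08) and MH63 library 2 (1.06) highest, while the circles stay between 0.975 and 1.02.

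Some loci were as even in F1 as others were uneven. LOC_Os01g50622 held 7.61, 7.56 and 7.63 FPKM in F1, a coefficient of variation of 0.474%, over 5.79, 3.12 and 4.62 in C92 and 2.97, 2.63 and 3.25 in MH63. LOC_Os03g48710 held 10.03, 10.33 and 10.38 FPKM in F1, over 6.29, 6.84 and 6.50 in C92 and 6.32, 7.46 and 6.13 in MH63. LOC_Os06g15370 held 49.91, 47.22 and 49.22 FPKM in F1, over 28.63, 32.96 and 28.73 in C92 and 22.22, 24.88 and 18.55 in MH63. These 3 loci were picked for their small F1 spread, and the parental libraries were less even. Their ratios to the higher parent were 1.69, 1.54 and 1.62, and that of LOC_Os01g50622 ran from 1.46 to 1.96 when single C92 libraries were left out. Over all 111 loci the ratio of the highest to the lowest F1 library had a median of 1.47 and quartiles of 1.24 and 1.72, and it reached 2 at 13 loci.

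The rule was also applied with each library left out in turn. The other libraries still entered the choice, so that loci low in the parents were selected, and the shares below are descriptions with no test. With F1 library 1 left out, 192 loci met the rule; library 1 lay above all 6 parental libraries at 133 of them (69.3%), against 14.4% of all loci with an F1 mean of at least 5 FPKM. It reached 1.5 times the larger parental mean at 73 of the 192 (38.0%), against 1.12%. With F1 library 2 left out, 111 loci met the rule, of which 86 were among the original 111. Library 2 lay above all parents at 94 of them (84.7%), against 19.2%, and reached the ratio of 1.5 at 80 (72.1%), against 2.15%. With F1 library 3 left out, 143 loci met the rule; library 3 lay above all parents at 120 (83.9%), against 17.6%, and reached the ratio at 85 (59.4%), against 1.59%. Library 1 had the lowest share at this limit. With the ratio raised to 2, only 56, 33 and 52 loci met the rule without library 1, 2 or 3. The shares above all parents were then 78.6%, 78.8% and 78.8%, and with so few loci they are uncertain.

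The parents were held out in the same way. Of the 128, 113 and 136 loci that met the rule without C92 library 1, 2 or 3, the library left out was below every F1 library at 115 (89.8%), 108 (95.6%) and 121 (89.0%). Of the 119, 146 and 117 loci that met it without MH63 library 1, 2 or 3, this held at 113 (95%), 116 (79.5%) and 104 (88.9%). Over all loci with an F1 mean of at least 5 FPKM it held at 34.8% to 45.1%. MH63 library 2 had the lowest share both at the chosen loci and over all loci, where it was 34.8%.

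Groups were compared with limma, a linear model fitted here to log2(FPKM + 1) over the 21447 loci that reached 1 FPKM in 3 or more libraries. All 111 loci passed this filter, and 0 of them did so through F1 alone. At an adjusted p below 0.05 (Benjamini-Hochberg over all 21447), 10.6% of all tested loci were called higher in F1 than in C92. The share called higher in F1 than in MH63 was 11.5%. In both comparisons, which share the F1 libraries, 1.32% of all loci were called. The rule used these same contrasts, so no such count is given for the 111.

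The contrast between the parents was not part of the rule, although the rule keeps both parental means low relative to F1. F1 had to exceed the higher parent, so the rule can itself favour loci with similar parents. The shares of the 111 loci below are therefore given as a description. A smaller share of these loci than of all tested loci was called between the parents. Of the 111, 15 were called higher and 6 lower in C92, together 21 (18.9%), against 34.1% of all tested loci, 19.2% higher and 14.9% lower. The libraries of C92 and MH63 did not overlap at 33 of the 111 (29.7%), against 47.3% of the 14113 loci with an F1 mean of at least 5 FPKM. The size of the difference was similar: the median absolute log2 ratio of the parental means (with 1 FPKM added) was 0.24 for the 111 and 0.24 for the 14113, and 8 loci (7.21%) against 7.80% differed by at least 2-fold. The wider spread of the 111 loci between libraries of a parent moved with the lower count of calls; its part was not tested. C92 had the higher mean at 66 of the 111 (59.5%), against 50.9% of the 14113.

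**Figure D4:**
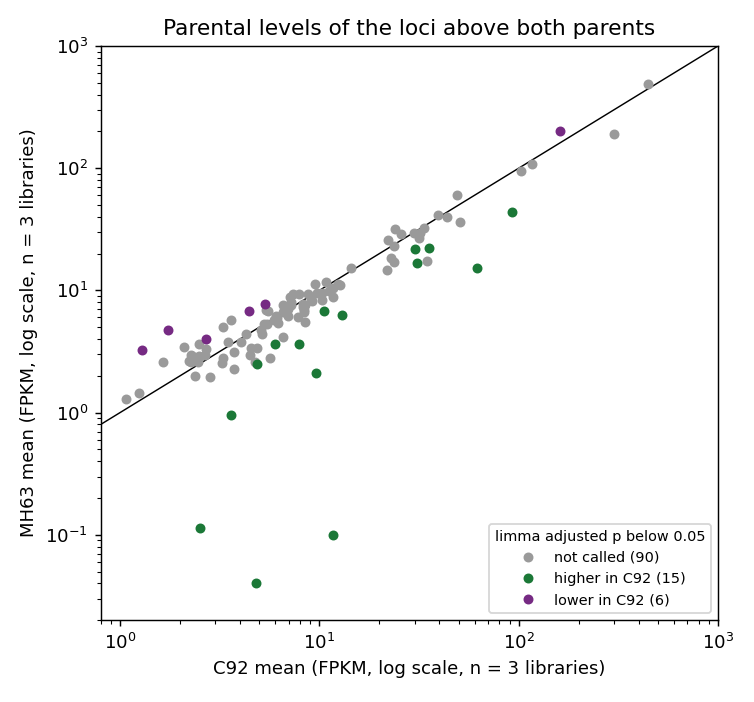
MH63 mean against C92 mean in FPKM (log scales, n = 3 libraries each) for the 111 loci, with the line of equal levels; colours give the limma call at an adjusted p below 0.05. Of the 111 loci, 90 were not called, 15 were higher and 6 lower in C92, and 3 loci lie far below the line with MH63 means of 0.0400 to 0.113 FPKM.

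The 2 largest called differences between the parents came from loci listed at or near 0 in MH63. LOC_Os08g30510 held 12.80, 12.83 and 9.43 FPKM in C92, 0.30, 0 and 0 in MH63, and 21.53, 18.25 and 37.24 in F1. C92 was higher by 3.53 on the log2(FPKM + 1) scale (SE 0.24, limma adjusted p = 3.27e-06), and the F1 mean was 2.20 times that of C92. LOC_Os06g19110 held 4.07, 6.34 and 3.95 FPKM in C92, 0.06, 0.03 and 0.03 in MH63, and 6.44, 6.86 and 9.13 in F1. Its log2 difference between the parents was 2.45 (SE 0.17, adjusted p = 3.88e-06, limma), and the F1 mean was 1.56 times that of C92. LOC_Os07g16360, near 0 in MH63 too and named after its values had been seen, held 2.35, 2.77 and 2.46 FPKM in C92, 0.12, 0.04 and 0.18 in MH63, and 6.79, 2.83 and 6.54 in F1, with F1 library 2 barely above C92. Its log2 difference was 1.66 (SE 0.24, limma adjusted p = 0.000578) and the F1 mean was 2.13 times that of C92.

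At most loci that a single parent expressed, F1 lay below that parent. Limits of at least 1 FPKM in every library of one parent and at most 0.5 in every library of the other, set after the values had been seen, were met by 167 loci expressed in C92 and 57 expressed in MH63 among those with an F1 mean of at least 5 FPKM. The F1 mean was a median of 0.585 times the C92 mean (quartiles 0.513 and 0.655) and 0.392 times the MH63 mean (0.338 and 0.451). F1 exceeded the expressing parent at 9 of the 167 loci and 2 of the 57, and by 1.5 times or more at 4 and 0. Among the 111 were 3 of the 167 loci and 0 of the 57, where 0.787% of all loci with an F1 mean of at least 5 FPKM met the rule. These counts are small, and a difference between the parents was not tested. Without knowing which genome the reads were aligned to, lower expression in MH63 and a poorer match of its reads cannot be told apart.

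LOC_Os07g33997, named after its values had been seen, was called between the parents while being expressed in both. It held 65.54, 64.64 and 54.03 FPKM in C92, 18.74, 12.65 and 14.66 in MH63, and 103.66, 109.85 and 106.82 in F1. C92 was higher by 1.94 on the log2 scale (SE 0.13, limma adjusted p = 3.35e-06), and F1 was 1.74 times C92 with a coefficient of variation of 2.90%.

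In the other direction the differences were smaller. LOC_Os09g25620 held 2.13, 1.98 and 1.09 FPKM in C92, 6.39, 4.32 and 3.57 in MH63, and 11.88, 8.31 and 10.51 in F1, a log2 difference of -1.07 (SE 0.22, limma adjusted p = 0.00444). LOC_Os01g47050 held 1.37, 1.42 and 1.08 FPKM in C92, 4.44, 3.42 and 1.88 in MH63, and 4.95, 6.07 and 5.71 in F1, a log2 difference of -0.85 (SE 0.21, limma adjusted p = 0.0114). F1 was 2.15 and 1.72 times the MH63 mean at these loci. Without MH63 library 3 the latter ratio was 1.42.

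Among the loci shown earlier, LOC_Os07g48020 was higher in C92 by 1.04 on the log2 scale (SE 0.22, limma adjusted p = 0.00584). LOC_Os06g15370 was higher in C92 by 0.45, with an SE of 0.11 and a limma adjusted p of 0.0117. LOC_Os01g32670 was higher in C92 by 1.85 (SE 0.50, limma adjusted p = 0.0176), a call lost without C92 library 2, MH63 library 1 or MH63 library 2, when the adjusted p was 0.0561, 0.0607 and 0.0501. LOC_Os01g37690 was lower in C92 by 0.33 (log2 difference -0.33, SE 0.12, limma adjusted p = 0.0495), and this call was lost in 12 of 15 other settings, with an adjusted p of up to 0.166. LOC_Os04g59440 did not pass, with a log2 difference of 0.75 (SE 0.27, limma adjusted p = 0.0565), but did so without MH63 library 1 (adjusted p = 0.00707) and under quantile normalization (adjusted p = 0.0444). LOC_Os08g07080 had a log2 difference of 0.31, with an SE of 0.55 and a limma adjusted p of 0.70. Single libraries decided this value, which was 1.05 without MH63 library 3 (limma adjusted p = 0.0369) and -0.14 without MH63 library 1 (adjusted p = 0.876).

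The loci lay on all 12 chromosomes. Chromosome 1 held 20, chromosomes 4 and 5 held 12 each, and chromosome 3 held 11. Set against the loci of each chromosome with an F1 mean of at least 5 FPKM, the share ran from 0.235% on chromosome 2, with 4 of 1701 loci, to 1.24% on chromosome 10, with 9 of 728. Over the genome it was 0.787%. The counts are small, and loci near each other are not independent, so the shares are given as a description.

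**Figure D5:**
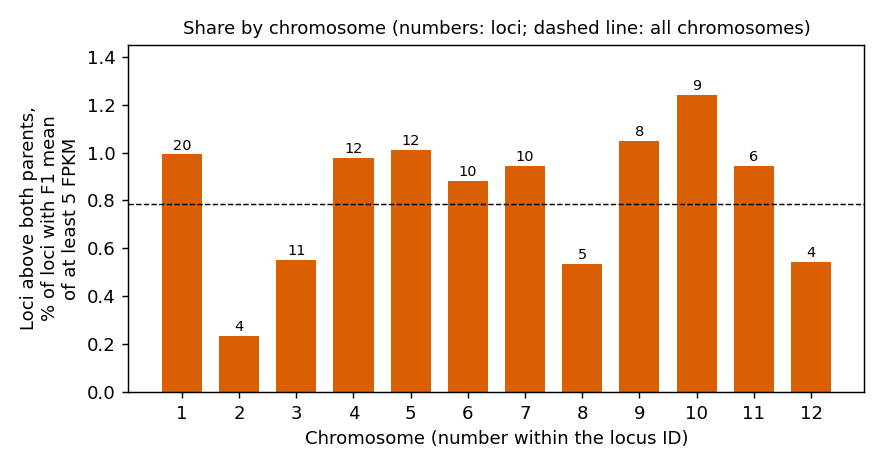
Loci above both parents as a percentage of the loci with an F1 mean of at least 5 FPKM on each chromosome; numbers over the bars are loci and the dashed line is the share over all chromosomes (0.787%). Chromosome 2 has the lowest share (0.235%) and chromosome 10 the highest (1.24%).

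Some of the loci were neighbours. Taking members within 5 places of each other in ID order, 4 groups were found, of 3, 2, 2 and 2 loci. Whether randomly placed loci would form as many was not tested. On chromosome 1, LOC_Os01g72120 held 2.37, 1.71 and 2.74 FPKM in C92, 2.26, 2.88 and 2.59 in MH63, and 4.80, 5.35 and 4.95 in F1. LOC_Os01g72130 held 5.91, 4.11 and 6.60 FPKM in C92, 6.20, 6.12 and 8.04 in MH63, and 8.46, 13.75 and 11.90 in F1. LOC_Os01g72170 held 5.69, 7.55 and 7.54 FPKM in C92, 7.21, 5.68 and 5.50 in MH63, and 11.49, 16.38 and 12.56 in F1. All 3 were highest in F1 library 2 and had ratios of 1.95, 1.68 and 1.95; the 3 loci listed between them had F1 means of 0.583, 0.123 and 0.0467 FPKM.

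On chromosome 5, LOC_Os05g27010 held 11.05, 10.74 and 13.46 FPKM in C92, 12.57, 11.59 and 7.47 in MH63, and 16.12, 24.77 and 17.48 in F1. LOC_Os05g27050 held 12.21, 7.80 and 10.75 FPKM in C92, 10.22, 10.80 and 7.74 in MH63, and 14.65, 24.81 and 13.05 in F1. Both loci were highest in F1 library 2, where their levels nearly coincided; in F1 library 3 LOC_Os05g27010 was the higher. Elsewhere on the chromosome, LOC_Os05g34830 held 9.17, 12.96 and 8.64 FPKM in C92, 4.12, 11.13 and 10 in MH63, and 18.05, 24.51 and 20.64 in F1. LOC_Os05g34854 held 6.23, 6.91 and 5.56 FPKM in C92, 4.54, 5.51 and 6.08 in MH63, and 12.13, 10.63 and 11.36 in F1. Ratios at these 4 loci were 1.66, 1.71, 2.05 and 1.82. Whether neighbouring IDs overlap on the genome was not examined, and reads of like copies could have been shared between them.

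On chromosome 6, loci between a pair of members were also higher in F1; they were picked out after their values had been seen. LOC_Os06g09940 held 3.06, 2.21 and 5.48 FPKM in C92, 0.51, 1.18 and 1.2 in MH63, and 6.33, 6.85 and 7.39 in F1, a ratio of 1.91. LOC_Os06g09990, 5 places further, held 6.4, 7.95 and 9.49 FPKM in C92, 1.79, 5.29 and 3.78 in MH63, and 12.58, 19.51 and 23.76 in F1, a ratio of 2.34. Both were called higher in C92 than in MH63, the first by 1.18 on the log2 scale (SE 0.25, limma adjusted p = 0.00503), the second by 1.02 with an SE of 0.31 and an adjusted p of 0.0291. At the 4 loci between them, which the rule had not chosen, the ratio of F1 to the larger parent ran from 1.31 to 2.51, and all F1 libraries were above all parental ones at 3, against 5.30% of all loci with a mean of at least 1 FPKM in F1 or a parent. Of these 4 loci, 3 had an F1 mean under 5 FPKM. LOC_Os06g09960, for instance, held 1.6, 1.32 and 2.04 FPKM in C92, 0.64, 1.13 and 1.15 in MH63, and 3.14, 5.02 and 3.65 in F1.

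Nearest neighbours of all 111 loci were then pooled, those beside the groups above included. The 213 nearest neighbours with a mean of at least 1 FPKM in F1 or a parent, other than the 111 loci themselves, had a median ratio of F1 to the larger parent of 0.901 (quartiles 0.738 and 1.07), against 0.895 (0.708 and 1.03) for all 21795 such loci. All F1 libraries were above all parental libraries at 18 of the 213 (8.45%), against 5.30% of all such loci; this difference was not tested.

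The starts of chromosomes 11 and 12 are known to hold nearly identical copies, between which reads could be split, so values of loci there are uncertain. Of the 111 loci, 5 had low ID numbers on these chromosomes. LOC_Os11g01530 held 38.60, 29.55 and 38.45 FPKM in C92, 14.18, 22.72 and 29.49 in MH63, and 68.07, 80.58 and 53.92 in F1. LOC_Os12g01530 held 23.10, 19.56 and 22.90 FPKM in C92, 9.09, 16.79 and 18.25 in MH63, and 38.89, 55.08 and 30.84 in F1. Within each group the libraries stood in the same order at both loci, and both had a ratio of 1.90; whether they are copies was not examined. LOC_Os11g01530 was called higher in C92, by 0.71 on the log2 scale (SE 0.24), with a limma adjusted p of 0.04997 at the edge of the threshold. The other 3 were LOC_Os11g03300, LOC_Os11g04560 and LOC_Os12g04360, with ratios of 2.74, 2.34 and 1.90. These loci were named after their values had been seen.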

How the data were processed

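Reads were aligned with HISAT2 2.0.5, per the submitters' processing notes; the sources used here name no genome build, annotation or strand setting, nor a program for the expression values. FPKM values were deposited by the authors, 1 per locus and library. The rule was applied to the FPKM values as deposited, and 111 loci were kept. Values of all 9 libraries, as log2(FPKM + 1) with a pseudocount of 1, entered 1 fit of limma (version 3.58.1, under R 4.3.3), with a trend of variance on level, two-sided tests and p-values adjusted by the Benjamini-Hochberg method over the 21447 loci that reached 1 FPKM in 3 or more libraries. Fold changes on this scale understate the change of low loci. Relative depth was taken from values of 0.2 to 1.5 FPKM, as the modal ratio to C92 library 1. Fits were tested on simulated data. The loci, the rule and the comparisons were chosen with earlier results of these data known.

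Named loci were the 6 with the largest ratio, the 6 with the highest F1 mean, the 3 on each side of the ratio of 1.5, the members of the 3 longest neighbouring groups (by number of members, with ties taken in ID order), the 2 with the largest called parental difference in each direction, and the 3 with the largest and smallest F1 variation; others are marked as chosen after their values were seen. Lists of genes by function could not be formed without gene names. Alternatives were the limits of the rule, the pseudocount, the filter, other scalings, the replicate number as a block and leaving out each library.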

Additional observations from a re-analysis of the deposited data

How the results depend on the processing

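The number of loci meeting the rule depended on its limits. It was 228 with an F1 mean of at least 1 FPKM, 378 at a ratio limit of 5/4, 37 at a ratio of 2 and 168 where libraries might overlap. With single libraries left out it ran from 111 (without F1 library 2) to 192 (without F1 library 1); 66 of the 111 loci met the rule in all 9 of these settings and 92 under both other scalings. F1 library 1, held out, lay above all parents at 78.6% of the 56 loci chosen at a ratio of 2, against 69.3% at 1.5. Libraries 2 and 3 went from 84.7% and 83.9% to 78.8% each, of 33 and 52 loci. The cause was not tested. The number called between the parents ran from 14 (with no filter on low values, with a mean of at least 5 FPKM, where 88 of the 111 were tested, or without C92 library 3) to 24 (without F1 library 2), against 21. The share called over all loci moved too. It was 18.9% with no filter (12.6% of the 111), 32.0% at a mean of 5 FPKM (15.9% of 88), 24.7% without C92 library 3 (12.6%) and 33.9% without F1 library 2 (21.6%), so the gap between the 111 and all loci was narrowest with no filter among these 4 settings. Fitting the replicate number as a block (replicate block) gave 22, of which 17 were among the 21. Deviations of same-numbered libraries from their group means correlated between -0.432 and 0.343 over the loci that passed the filter. Those of libraries with unlike numbers correlated between -0.413 and 0.415. These ranges show no pairing by number, but pairing at the 111 loci was not examined. For the named loci, 327 recomputed ratios moved by less than the F1 SD of the locus over its larger parental mean, and 25 moved further. This limit is wide at uneven loci and narrow at even ones, so the counts do not measure stability. Of these ratios, 0 fell below 1. Where a library was left out this was fixed in advance, as all F1 libraries of these loci lay above all parental ones. Parental calls stayed the same in 411 recomputations, were lost in 15 and gained in 4. All losses were at LOC_Os01g37690 (12) and LOC_Os01g32670 (3). Most of the named loci were not called in the main fit and mostly stayed uncalled, so these counts do not measure stability either. Read numbers are not given, so the counting error behind low values is unknown.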
